A study of Bos taurus with 34 samples.

Results

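Striated muscle, that is heart and skeletal muscle, is the main source of the 5 miRNAs described here: bta-miR-1, bta-miR-133a, bta-miR-133b, bta-miR-206 and bta-miR-499. They were chosen by name, as classical muscle miRNAs, from the 800 bovine miRNAs counted in this series. The series holds small RNA libraries from the blood of 17 dairy cows. Of these, 11 had subclinical endometritis (SCE), in which the lining of the uterus is inflamed but the cow shows no clinical sign, and 6 were healthy, as judged by endometrial cytology and biopsy. Each cow was bled at an early and a later time after calving, called day 25 and day 45 in the sample labels and given as 21 and 44 days in the design text, and the labels name the fluid as serum where the design text names cell-free plasma. The question was whether circulating miRNAs differ between SCE and healthy cows.

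The groups were SCE cows at day 25 and at day 45 (n = 11 each), healthy cows at day 25 (n = 5) and healthy cows at day 45 (n = 6). No treatment, breed or age is given in the labels used here. The day-25 file of healthy cow 3 held the same values as its day-45 file and was left out, so 33 libraries entered the comparisons. Libraries are of separate animals within each group, and the same animals gave both days. Total counts ran from 678389 to 19747294 in SCE libraries and from 7398849 to 28872153 in healthy libraries. The shallowest pair came from SCE cow 10, with 678389 counts at day 45 and 1343401 at day 25. The numbers in the library titles ran from 31 to 52 in SCE cows and from 13 to 24 in healthy cows without overlap, so status and any order of library preparation that these numbers follow cannot be told apart.

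Cardiac and skeletal muscle fibres transcribe these miRNAs at high levels under muscle transcription factors, and most other tissues hold little of them. Damaged fibres release them, which is why they are used as plasma signs of muscle injury in humans and rodents. miR-1 and miR-133a are made together from shared transcripts in both kinds of striated muscle, miR-206 and miR-133b come from another shared transcript that is mainly skeletal, and miR-499 lies in an intron of a myosin heavy chain gene of slow and cardiac muscle.

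The bovine annotation (RefSeq, assembly ARS-UCD2.0, used for names and neighbours only, since the files follow another build) placed the 5 miRNAs at 7 loci with the same arrangement. MIR1-1 neighbours MIR133A-1, and MIR1-2 neighbours MIR133A-2 inside the gene MIB1. MIR206 neighbours MIR133B. MIR499 lies inside MYH7B, that myosin gene. MIR133C, the locus of a further miR-133 family member, overlaps MIR133A-1, and MIR208B lies inside MYH7, the gene of the slow and cardiac beta myosin heavy chain.

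The 5 miRNAs took up very little of the blood signal, and they were unequally present. miR-133a, which regulates the growth and division of muscle cells, had 6612 counts over the 33 libraries, was found in all 33, and ranked 165 of 800 by mean level. miR-499, a marker of slow and cardiac fibres, had 3671 counts, was also found in all 33, and ranked 215. These totals were 0.00175% and 0.000974% of all counts. miR-133b had 154 counts in 27 libraries, with more than 3 counts in 14 of them. miR-1, usually the most abundant miRNA of heart and muscle, had 42 counts in 6 libraries, and miR-206, the skeletal member, had 11 counts in 1 library. Levels below are CPM (counts scaled to a common library size) after TMM scaling, which divides each library by an effective size less swayed by its few dominant miRNAs. A count of 0 in a library allows up to 3 counts, which is 0.114 to 2.04 CPM for miR-1 and 0.0788 to 2.04 CPM for miR-206, so low levels of either were not detectable at this depth. Such limits and the Poisson intervals below cover counting error only, since reads after PCR carry no molecular identifiers. In cell-free RNA, release by more cells and release of more RNA per cell cannot be told apart.

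The proportions among these miRNAs were far from even. For every 100 counts of miR-133a there were 0.635 counts of miR-1 over all libraries and 0.224 without SCE cow 10 at day 45, although both come from the same transcripts. In single libraries the median of this ratio was 0. There were 2.33 counts of miR-133b per 100 of miR-133a, with 3.77 in SCE and 1.45 in healthy cows at day 25, and 2.29 in SCE and 1.60 in healthy cows at day 45. The healthy value at day 25 rests on cow 5, which gave 10 of the 12 miR-133b counts, and was 0.385 without that cow. Ligation and sequence affect how well each miRNA enters a library, so ratios between miRNAs are ratios of reads.

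**Figure D1:**
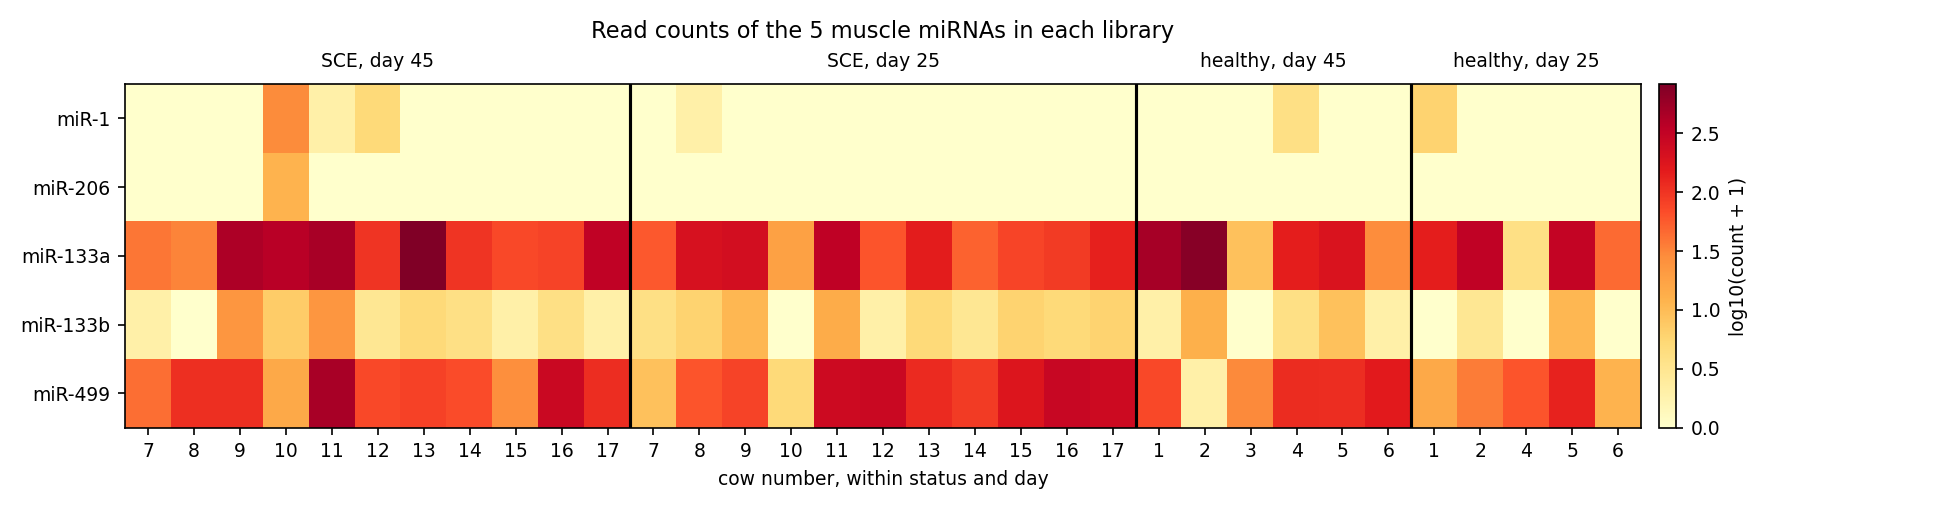
Read counts of the 5 miRNAs (rows) in each of the 33 libraries (columns, by cow number within status and day), as log10 of the count plus 1. miR-133a and miR-499 were counted in all 33 libraries, miR-133b in 27, miR-1 in 6, and miR-206 in 1, that of SCE cow 10 at day 45.

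miR-1, which promotes muscle differentiation, had 28 of its 42 counts in a single library and the rest in 5 others. In SCE cows at day 45 it had those 28 counts in cow 10, 4 in cow 12 and 1 in cow 11, with 0 in the other 8. In SCE cows at day 25 it had 1 count, in cow 8. In healthy cows it had 3 counts in cow 4 at day 45 and 5 counts in cow 1 at day 25. The 28 counts of cow 10 (exact Poisson 95% interval 18.6 to 40.5) amounted to 36.4 CPM, while the 3 counts of healthy cow 4 made 0.21 CPM and the 5 of healthy cow 1 made 0.682 CPM. Most cows of either status had no miR-1 at either day.

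miR-206, which acts in skeletal muscle regeneration and at the nerve to muscle junction, had 11 counts in SCE cow 10 at day 45 (exact Poisson 95% interval 5.49 to 19.7; 14.3 CPM) and 0 in the other 32 libraries. Neither miR-1 nor miR-206 passed the filter on low counts of edgeR, which asks for about 10 counts in as many libraries as the smaller group holds, in any comparison. No test is given for either.

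That library of SCE cow 10 was the highest of the 33 for miR-1, miR-206, miR-133a and miR-133b. For miR-499 its level was within counting error of other libraries, ranking first under TMM scaling, where the next was 17.75 CPM, and eighth on library totals. It held 476 CPM of miR-133a from 366 counts (exact Poisson 95% interval 428 to 527 CPM), 7.80 CPM of miR-133b from 6 counts and 18.2 CPM of miR-499 from 14 counts (exact Poisson 95% interval 9.95 to 30.5 CPM). It was also the shallowest library, at 678389 counts. The same library was the highest for miR-122, the defining miRNA of liver, with 130 CPM from 100 counts, against a median of 6.84 CPM in the other libraries. miR-486, a miRNA of red blood cells and of muscle, took 50.5% of its counts. The day-25 library of the same cow held 17 counts of miR-133a (11.5 CPM), 4 of miR-499 (2.72 CPM), and none of miR-1, miR-133b or miR-206. The parts played by depth and by RNA of other tissues in this library were not tested. Comparisons that this library or that of healthy cow 2, the second highest in miR-133a, could carry are given below with and without those cows.

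miR-133a varied widely between cows, most of all at day 45. At day 25 it ran from 3.57 CPM through a median of 10.7 to 24.8 CPM in SCE cows. In healthy cows at day 25 it was 19.6, 29.1, 0.442, 12.9 and 12.3 CPM in cows 1, 2, 4, 5 and 6. No SCE cow exceeded all healthy cows, 3 of 11 lay above the healthy median, and healthy cow 4, with 3 counts, lay below all others. The group means were 12.2 ± 7.27 CPM in SCE cows (SD, n = 11) and 14.9 ± 10.5 CPM in healthy cows (SD, n = 5).

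At day 45 miR-133a ran from 1.84 CPM through a median of 12.3 to 476 CPM in SCE cows, and from 1.27 CPM through a median of 9.63 to 134 CPM in healthy cows. Each status had a few cows far above the rest, namely SCE cow 10 and SCE cow 13 (107 CPM from 823 counts) and healthy cow 2 (134 CPM from 727 counts) and healthy cow 1 (41.2 CPM). The groups overlapped almost wholly, since 1 of 11 SCE cows exceeded all healthy cows and 6 of 11 exceeded the healthy median. Means were 63.5 ± 140 CPM in SCE cows (SD, n = 11) and 32.9 ± 51.6 CPM in healthy cows (SD, n = 6). Without cow 10 the SCE mean was 22.2 ± 31.4 CPM (SD, n = 10), and without healthy cow 2 the healthy mean was 12.8 ± 16.4 CPM (SD, n = 5), so the order of the means depended on which of these cows was kept.

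The status of the cow did not separate miR-133a beyond its spread. Its log2 fold change, SCE over healthy, was -0.33 (SE 0.59, 95% interval -1.55 to 0.88) at day 25, with edgeR adjusted p = 0.778. At day 45 it was 0.84 (SE 0.99, 95% interval -1.20 to 2.88), with edgeR adjusted p = 0.791. It was -0.54 without SCE cow 10 and 2.51 without healthy cow 2 (unadjusted p = 0.0377, edgeR adjusted p = 0.596). With both days summed per cow it was 0.58 (SE 0.76), with edgeR adjusted p = 0.720, and was -0.41 without SCE cow 10 and 1.43 without healthy cow 2. At day 25 the sign also depended on the method, standing at 0.59 when scaled by library totals alone and 0.10 by limma-voom, and it was 0.0378 without healthy cow 2.

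**Figure D2:**
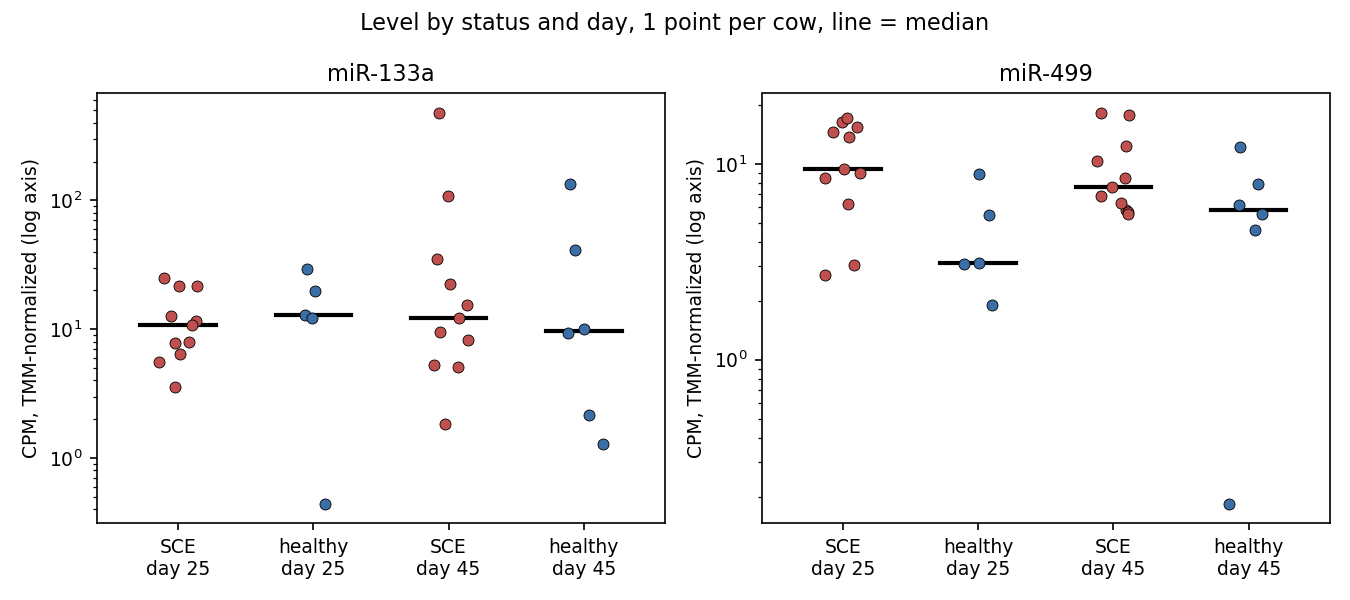
CPM (TMM-scaled, log axis) of miR-133a (left) and miR-499 (right) in each cow by status and day, with a line at the group median. miR-133a reaches 476 CPM in SCE cow 10 and 134 CPM in healthy cow 2 at day 45, and miR-499 at day 25 has a median of 9.45 CPM in SCE cows and 3.1 CPM in healthy cows.

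miR-499 had the higher median in SCE cows at both days, yet edgeR did not call it. At day 25 it ran from 2.72 CPM through a median of 9.45 to 17.1 CPM in SCE cows. In healthy cows at day 25 it was 1.91, 3.1, 8.85, 5.46 and 3.08 CPM in cows 1, 2, 4, 5 and 6. Of the 11 SCE cows, 7 exceeded all healthy cows and 9 exceeded the healthy median, while SCE cows 7 and 10 were among the lowest with 8 and 4 counts. Means were 10.6 ± 5.21 CPM in SCE cows (SD, n = 11) and 4.48 ± 2.76 CPM in healthy cows (SD, n = 5).

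At day 45 the groups lay closer. miR-499 ran from 5.55 CPM through a median of 7.63 to 18.2 CPM in SCE cows, and from 0.184 CPM through a median of 5.84 to 12.3 CPM in healthy cows. Here 3 of 11 SCE cows exceeded all healthy cows and 9 exceeded the healthy median, and 3 of 6 healthy cows lay below every SCE cow. The lowest value was a single count in healthy cow 2, whose miR-133a was the highest of the healthy cows.

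The log2 fold change of miR-499, SCE over healthy, was 1.22 (SE 0.51, 95% interval 0.16 to 2.27) at day 25, with unadjusted p = 0.0257 and edgeR adjusted p = 0.186. It stood at rank 51 of 372 miRNAs by p, and was 1.32 without SCE cow 10. At day 45 it was 0.65 (SE 0.53, 95% interval -0.43 to 1.74), with edgeR adjusted p = 0.688, and 0.56 without SCE cow 10. Summed over both days it was 0.77 (SE 0.38), with unadjusted p = 0.0498 and edgeR adjusted p = 0.297, and 0.87 without SCE cow 10. Scaled by library totals alone it was 2.15 at day 25 (edgeR adjusted p = 0.0476) and 1.52 over both days (edgeR adjusted p = 0.0379). That scaling moved the median log2 fold change of all miRNAs by 0.93 at day 25 and by 0.73 over both days. It called 48 of 372 miRNAs (12.9%) at day 25 and 64 of 418 (15.3%) over both days, every one of them higher in SCE cows. At day 45 it called 1 of 382 (0.262%), no muscle miRNA. Over all 24 alternatives at day 25 the adjusted p of miR-499 ran from 0.0476 to 0.352.

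miR-486 moved against miR-499. Red blood cell miRNAs (miR-486, miR-451 and miR-144 together) took 4.22% to 79.4% of counts in SCE cows at day 25, with a median of 11.5%, and 24.9% to 81.7% in healthy cows, with a median of 45.4%. At day 45 they took 4.17% to 53.7% (median 36.9%) in SCE cows and 15.2% to 73.1% (median 48.6%) in healthy cows. None of these markers was at 0 throughout. Nearly all of the share was miR-486. In healthy cows at day 25 its mean on library totals was 502700 CPM, beside 5672 for miR-451 and 140 for miR-144. With TMM their day-25 log2 fold changes, SCE over healthy, were -1.54, -0.44 and -0.30. On library totals the day-25 medians of miR-451 were 4977 CPM in SCE and 3871 in healthy cows. Those of miR-144 were 120 and 56.2. The order of miR-451 and miR-144 thus turned with the scaling. Over the 33 libraries Spearman's rho of miR-499 with miR-486 was -0.73, the lowest of the 405 miRNAs compared with it, and -0.81 on library totals. With miR-451 rho was -0.20, and 0.10 on library totals. On library totals miR-486 enters the total by which every other miRNA is divided, while TMM scaling is less swayed by it. The part of miR-486 in the difference of miR-499 was not tested beyond the scalings given. With miR-486 left out of the table, the log2 fold change of miR-499, SCE over healthy, was 1.37 at day 25 (unadjusted p = 0.0168, edgeR adjusted p = 0.174) and 0.61 at day 45 (edgeR adjusted p = 0.674).

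miR-133b was too sparse for the filter in every comparison. In SCE cows at day 25 it was counted in 10 of 11, with a mean of 0.450 ± 0.379 CPM (SD, n = 11), and in healthy cows in 2 of 5, with a mean of 0.119 ± 0.183 CPM (SD, n = 5). At day 45 it was counted in 10 of 11 SCE cows, with a mean of 1.07 ± 2.29 CPM (SD, n = 11; 0.393 ± 0.516 CPM without cow 10, n = 10), and in 5 of 6 healthy cows, with a mean of 0.498 ± 0.850 CPM (SD, n = 6). Most of these values were 1 to 5 counts. Fitted without the filter, its log2 fold change, SCE over healthy, was 1.61 at day 25 (edgeR adjusted p = 0.335) and 0.70 at day 45 (edgeR adjusted p = 0.853).

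Read against the whole table, these miRNAs did not stand out by status. At day 25 edgeR called 1 of 372 miRNAs tested (0.269%) at an adjusted p under 0.05, and none of the 2 muscle miRNAs that passed the filter. At day 45 it called 0 of 382 (0%), and over both days 1 of 418 (0.239%), again without a muscle miRNA. At an unadjusted p under 0.05 stood 75 of 372 miRNAs at day 25 (20.2%), with miR-499 among them, 39 of 382 at day 45 (10.2%), with no muscle miRNA, and 69 of 418 over both days (16.5%), with miR-499. DESeq2 called 14 of 522 miRNAs (2.68%), 1 of 748 (0.134%) and 15 of 286 (5.24%) in these comparisons, and no muscle miRNA in any. It gave no p for miR-133a at day 45, which its test for outlying counts removed. For miR-499 the DESeq2 adjusted p was 0.125 at day 25. limma-voom called neither.

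**Figure D3:**
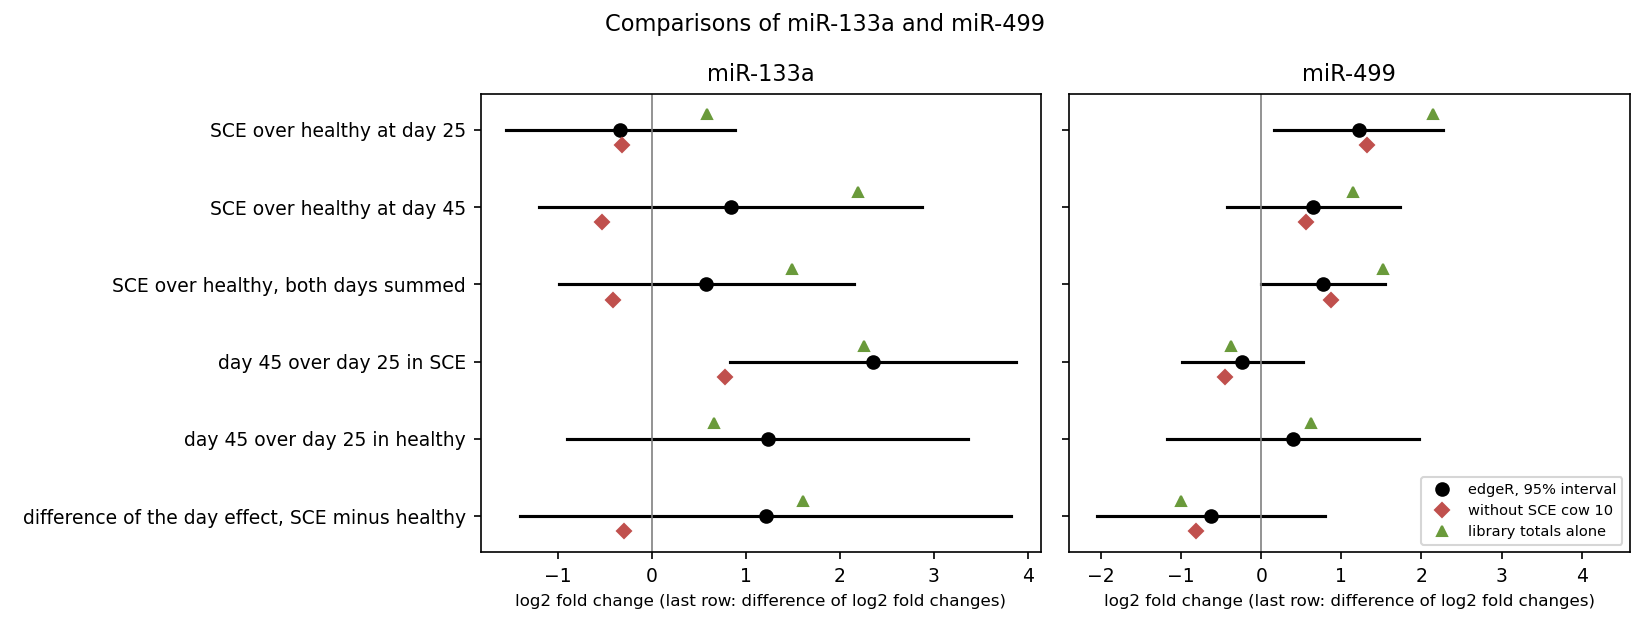
Log2 fold changes of miR-133a (left) and miR-499 (right) in the 6 comparisons, from edgeR with 95% intervals (circles), without SCE cow 10 (diamonds) and scaled by library totals alone (triangles). The miR-133a value for SCE over healthy at day 45 is 0.84 with all cows and -0.54 without cow 10, while miR-499 at day 25 is 1.22 and 1.32.

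Between the days, miR-133a had the lowest p of any miRNA in SCE cows, and this rested largely on cow 10. Its log2 fold change, day 45 over day 25, was 2.35 (SE 0.74, 95% interval 0.83 to 3.87), with unadjusted p = 0.00374 and edgeR adjusted p = 0.705 over 346 miRNAs, of which edgeR called 0 (0%). At an unadjusted p under 0.05 stood 14 of 346 (4.05%), and DESeq2 called none. Without SCE cow 10 the value was 0.78 (unadjusted p = 0.178, edgeR adjusted p = 0.814). With the cow as a block, so that each cow was compared with itself, it was 0.55 (edgeR adjusted p = 0.807).

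The single cows went both ways. miR-133a was higher at day 45 in 7 of 11 SCE cows and in 3 of 5 healthy cows with both days. In SCE cow 10 day 45 was 41.2 times day 25, and in SCE cow 13 it was 9.96 times. In SCE cow 8 it was 0.0857 times day 25 (31 counts at day 45 and 202 at day 25), and in SCE cow 7 it was 0.244 times. Among healthy cows it was 22.5 times in cow 4, which had 142 counts at day 45 and 3 at day 25, 4.6 times in cow 2 and 0.174 times in cow 6. In healthy cows the log2 fold change was 1.23 (SE 1.02, 95% interval -0.90 to 3.37), with edgeR adjusted p = 1. It was 0.14 without healthy cow 2 and 0.05 by limma-voom. In this comparison edgeR called 0 of 345 (0%), with 10 of 345 (2.90%) at an unadjusted p under 0.05, and DESeq2 called 0 of 695.

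miR-499 showed no common direction between the days. It was higher at day 45 in 6 of 11 SCE cows and in 3 of 5 healthy cows. The extremes were SCE cow 10 at 6.70 times its day-25 level, SCE cow 15 at 0.362 times, healthy cow 6 at 3.99 times and healthy cow 2 at 0.0593 times (1 count at day 45 and 35 at day 25). The log2 fold change, day 45 over day 25, was -0.24 (SE 0.37, 95% interval -0.99 to 0.52) in SCE cows, with edgeR adjusted p = 0.882, and -0.45 without cow 10. In healthy cows it was 0.40 (SE 0.75, 95% interval -1.17 to 1.97), with edgeR adjusted p = 1.

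The day effects of the statuses were not shown to differ. The difference of the log2 fold changes, SCE minus healthy, was 1.21 (SE 1.29) for miR-133a and -0.63 (SE 0.70) for miR-499, each with edgeR adjusted p = 0.988. Without SCE cow 10 the values were -0.30 for miR-133a and -0.82 for miR-499, and without healthy cow 2 they were 2.13 and -0.81. Of 406 miRNAs edgeR called 0 (0%), DESeq2 called none, and 7 (1.72%) had an unadjusted p under 0.05, no muscle miRNA among them. Both this fit and the main fits between days treated the libraries of a cow as independent. Values with the cow as a block are given at the end.

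**Figure D4:**
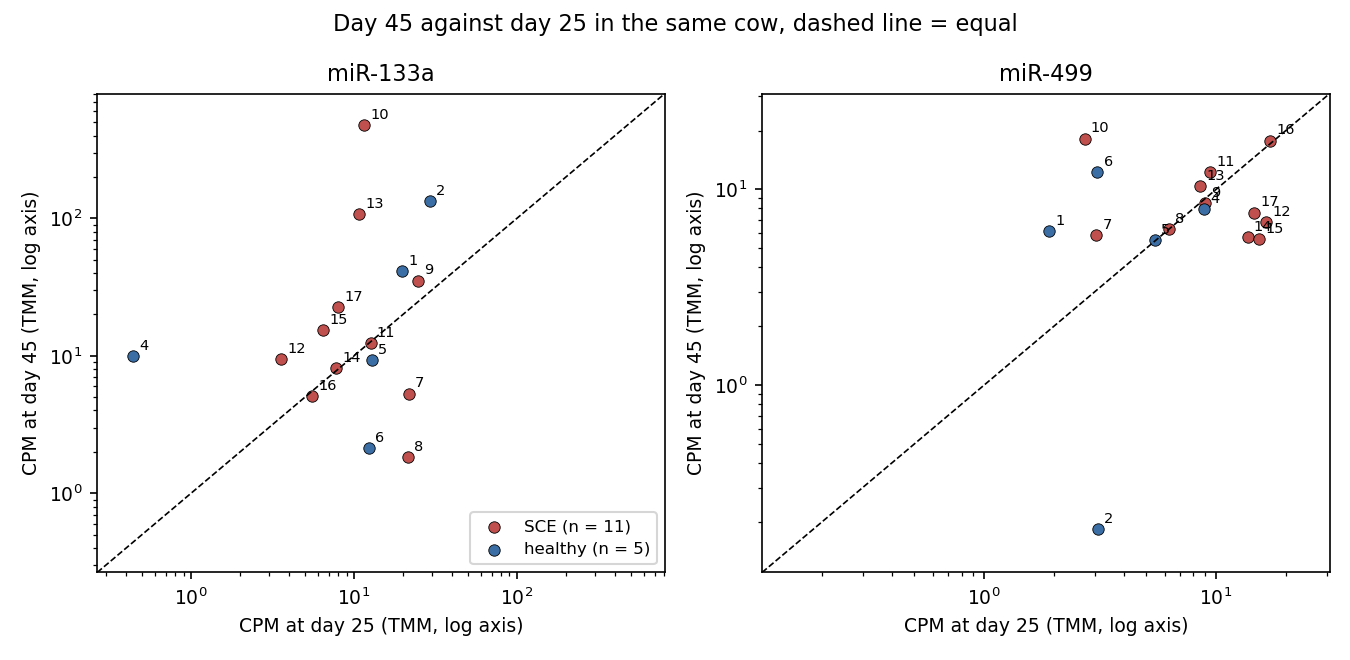
CPM at day 45 (vertical) against day 25 (horizontal) in the same cow, both TMM-scaled on log axes, for miR-133a (left) and miR-499 (right), with cow numbers and a dashed line of equal levels. Of 11 SCE cows, 7 lie above the line for miR-133a and 6 for miR-499, and of 5 healthy cows 3 lie above it for each.

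The 2 well measured muscle miRNAs did not rise and fall together, while the 2 miR-133 forms did at day 45. Of the 16 relations between pairs of the 5 miRNAs that could be computed within a day (miR-206 had no counts at day 25), 1 passed the adjustment over all 16. miR-133a and miR-133b at day 45 had a Pearson r of 0.82 over 17 cows (permutation p = 9e-05, adjusted 0.0014) and a Spearman rho of 0.69 (permutation p = 0.0029, adjusted 0.046). Without the 2 cows farthest from the median r was 0.60, without SCE cow 10 it was 0.72 and without healthy cow 2 it was 0.79. It was 0.84 within SCE cows (n = 11) and 0.78 within healthy cows (n = 6). At day 25 r was 0.45 over 16 cows (permutation p = 0.08, adjusted 0.14), with rho of 0.41 (permutation p = 0.12, adjusted 0.24), and r was 0.18 without the 2 farthest cows. miR-133a and miR-133b are nearly the same in sequence, and the sources used here do not say how reads that match both were counted, so a part of the miR-133b counts may be miR-133a reads.

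miR-133a and miR-499 ran against each other at day 25, with a Pearson r of -0.50 (permutation p = 0.036, adjusted 0.12) and a rho of -0.64 (permutation p = 0.0096, adjusted 0.077) over 16 cows, which did not pass the adjustment. The r was -0.69 within SCE cows (n = 11), and on library totals alone it was 0.06 over all 16. At day 45 r was -0.15 over 17 cows (permutation p = 0.56, adjusted 0.60), with rho of 0.16 (permutation p = 0.53, adjusted 0.56). It was 0.51 within SCE cows (n = 11) and -0.71 within healthy cows (n = 6), and over all cows it was -0.40 without SCE cow 10 and 0.42 without healthy cow 2.

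Across the 33 libraries each well measured miRNA had its own closest partners, given here as Spearman's rho without a test, since libraries share cows and depth. The values pool both statuses and both days, so differences between groups enter them. For miR-133a the 3 closest of 405 miRNAs were miR-133c (0.80), miR-199a-5p (0.80) and miR-214 (0.79), where miR-199a and miR-214 are made together from a transcript antisense to a dynamin gene in mesenchymal cells. The part of reads that match both miR-133a and miR-133c in the first of these values was not tested. For miR-499 the 3 closest were miR-29c (0.81), miR-374b (0.81) and miR-345-5p (0.77), and each was higher on library totals alone, at 0.91, 0.89 and 0.88. Within SCE cows, in the same order, rho was 0.89, 0.92 and 0.92 at day 25 and 0.64, 0.43 and 0.46 at day 45. Within healthy cows it was 0.70, 1.0 and 0.60 at day 25 (n = 5) and 0.71, 0.71 and 0.94 at day 45 (n = 6). For miR-133b the 3 closest were miR-494 (0.68), miR-380-3p (0.66) and miR-335 (0.63). For miR-1 and miR-206, counted in 6 and 1 libraries, rho reached no more than 0.53 and 0.30 and was set by where the few counts fell.

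miR-208b, which like miR-499 lies in an intron of a slow myosin gene, had a rho with miR-499 of 0.65 over 33 libraries (0.88 on library totals), rank 21 of 405, below miR-29c, miR-374b and miR-345-5p. There were 97.4 counts of miR-499 per 100 of miR-208b, and the ratio per group was 98.2 in SCE and 111 in healthy cows at day 25, and 98.1 in SCE and 88.1 in healthy cows at day 45. In single libraries the ratio ran from 1.28 to 500. The lowest was healthy cow 2 at day 45, with 1 count of miR-499 and 78 of miR-208b. Levels of miR-208b were 11.6 ± 6.91 CPM in SCE (SD, n = 11) and 5.94 ± 5.58 CPM in healthy cows at day 25 (SD, n = 5), and 9.96 ± 4.48 in SCE (SD, n = 11) and 8.46 ± 4.16 in healthy cows at day 45 (SD, n = 6). Its log2 fold change, SCE over healthy, was 0.96 (SE 0.65) at day 25, with edgeR adjusted p = 0.416, and 0.22 at day 45, with edgeR adjusted p = 0.905. Without SCE cow 10 these were 1.03 and 0.17, and without healthy cow 2 they were 0.66 and 0.58.

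miR-133c had 8.18 counts per 100 of miR-133a, with 8.70 in SCE and 11.3 in healthy cows at day 25, and 5.99 in SCE and 10.0 in healthy cows at day 45. MIR133C overlaps MIR133A-1, and the sources used here do not say how reads that match both miRNAs were counted. Some miR-133c counts may therefore be miR-133a reads. The libraries with most miR-133a differed in miR-133c. SCE cow 10 at day 45 held 1 count of miR-133c beside 366 of miR-133a, while healthy cow 2 at day 45 held 73 beside 727, the highest miR-133c level of the 33 libraries. The log2 fold change of miR-133c, SCE over healthy, was -0.90 at day 25 (edgeR adjusted p = 0.447) and -1.53 at day 45 (edgeR adjusted p = 0.483). Both rested on healthy cow 2, without which they were 0.01 and -0.02, while without SCE cow 10 they were -0.93 and -1.53.

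**Figure D5:**
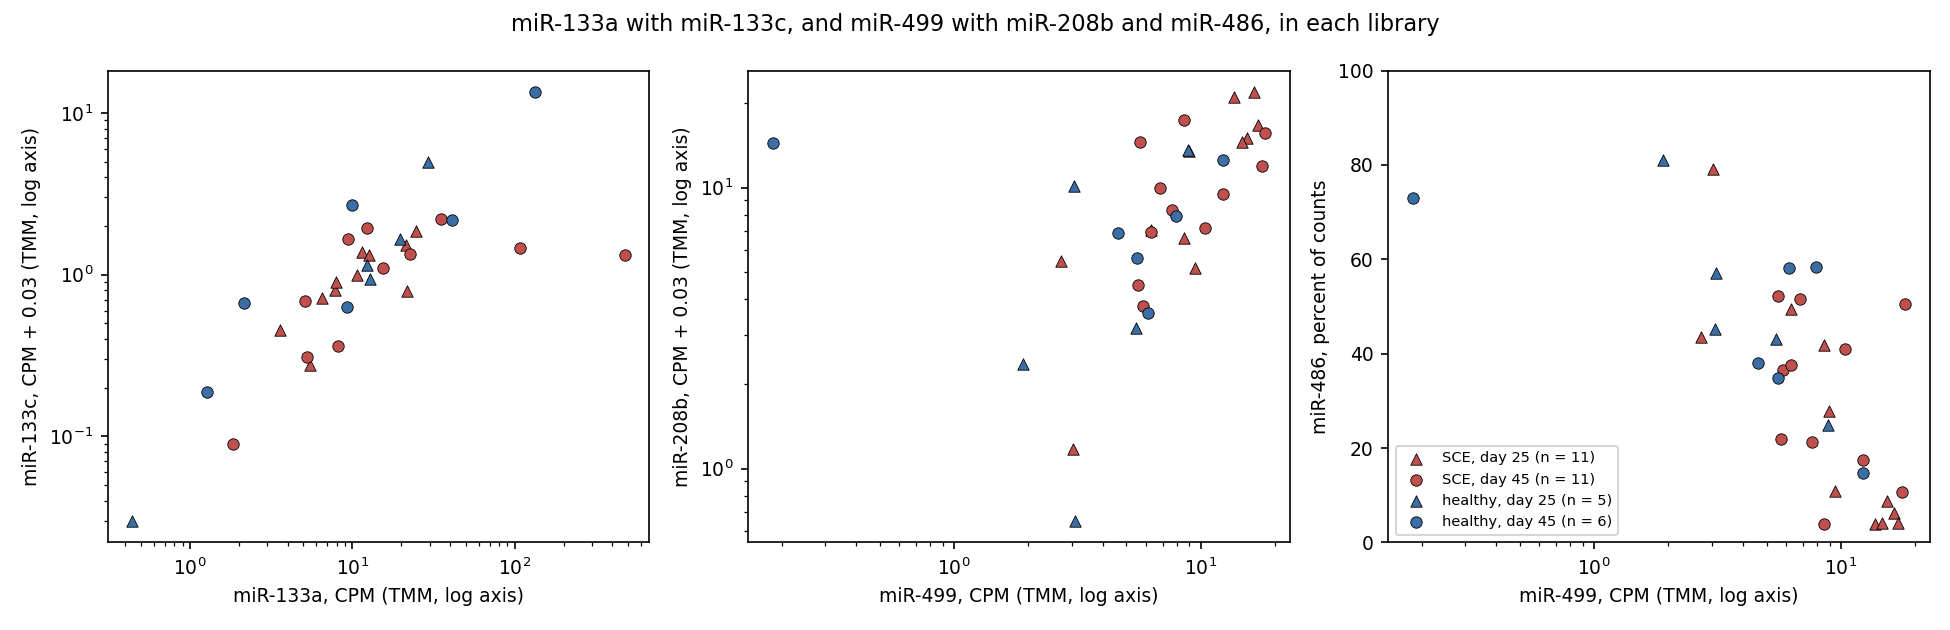
Each point is 1 of 33 libraries, by status (colour) and day (shape): miR-133c against miR-133a (left), miR-208b against miR-499 (middle), both as TMM-scaled CPM on log axes, and the percent of counts that were miR-486 against miR-499 (right, linear vertical axis). Spearman's rho is 0.80, 0.65 and, with miR-486 as CPM, -0.73, and healthy cow 2 at day 45 is the point farthest left in the middle and right panels.

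The 3 libraries with most miR-133a also differed in miRNAs of other tissues. SCE cow 13 at day 45, with 107 CPM of miR-133a, had 0 counts of miR-1 and miR-206 and was the highest of the 33 for miR-143 (111400 CPM) and miR-145 (398.5 CPM), the defining pair of smooth muscle. Healthy cow 2 at day 45 also had 0 counts of miR-1 and miR-206, ranked second for miR-143 but 29 for miR-145 (11.2 CPM), and had 73.0% of its counts in miR-486. SCE cow 10 at day 45 held miR-1 and miR-206 and ranked 11 for miR-143 and 4 for miR-145 (116 CPM). Over 33 libraries rho of miR-133a was 0.63 with miR-143 and 0.46 with miR-145. Both smooth muscle miRNAs together took 0.252% to 10.1% of counts in SCE cows at day 45 (median 0.861%) and 0.404% to 2.69% in healthy cows (median 0.754%). At day 25 they took 0.263% to 2.12% in SCE cows (median 0.393%) and 0.253% to 1.20% in healthy cows (median 0.514%). Most of this was miR-143, whose mean on library totals was 6962 CPM in SCE cows at day 25, beside 92.15 for miR-145. The pair went opposite ways by status. At day 25 the log2 fold change, SCE over healthy, was -0.95 for miR-143 and 1.37 for miR-145 (edgeR adjusted p = 0.296 and 0.185). At day 45 it was -0.18 and 2.09 (edgeR adjusted p = 0.958 and 0.277). Neither marker was at 0 in every library, and the part of smooth muscle RNA in the miR-133a values was not tested.

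Of 16 other miRNAs linked to muscle development, growth or wasting, miR-208b and miR-133c among them, 15 were tested, and neither edgeR nor limma-voom called any in the 6 comparisons. These tools called few miRNAs of any kind. edgeR called 1 of 372 at day 25, 1 of 418 over both days and 0 elsewhere. For limma-voom these numbers were 2, 1 and 0. DESeq2 called 1 at day 25, miR-30b-5p, where it called 2.68% of all, and 2 over both days, miR-30b-5p and miR-29c, where it called 5.24% of all, and none elsewhere. The log2 fold change of miR-30b-5p, SCE over healthy, was 2.88 at day 25 (edgeR adjusted p = 0.0787, DESeq2 adjusted p = 0.00101) and 2.14 over both days (edgeR adjusted p = 0.141, DESeq2 adjusted p = 0.00661). That of miR-29c over both days was 1.141 (edgeR adjusted p = 0.161, DESeq2 adjusted p = 0.0244). By status at day 25, 9 were higher and 6 lower in SCE cows, with a median log2 fold change of 0.67 beside -0.05 over all 372 miRNAs, and 4 had an unadjusted p under 0.05, beside 20.2% of all. At day 45, 9 were higher and 6 lower, with a median of 0.12 beside 0.11 over all 382, and 4 again had an unadjusted p under 0.05, beside 10.2% of all. Over both days, 8 were higher and 7 lower, with a median of 0.30 beside 0.04 over all 418. There 6 of 15 had an unadjusted p under 0.05 in edgeR, beside 16.5% of all. Between the days, 6 were higher and 9 lower at day 45 in SCE cows (median -0.26, against -0.11 over all), and 12 were higher and 3 lower in healthy cows (median 0.34, against 0.01 over all), and none had an unadjusted p under 0.05. The most abundant were miR-486, miR-22-3p, miR-27b and miR-26a. Their log2 fold changes at day 25, SCE over healthy, were -1.54 for miR-486 (edgeR adjusted p = 0.296), 0.67 for miR-22-3p, 0.32 for miR-27b and 1.37 for miR-26a (edgeR adjusted p = 0.186). At day 45 they were -1.37 for miR-486 (edgeR adjusted p = 0.460), -0.07 for miR-22-3p, -0.45 for miR-27b and 0.54 for miR-26a. miR-22-3p shared nearly all its counts with the row miR-3600, from which it differed by 0.00226% of the larger total.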

How the data were processed

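Small RNA of blood was sequenced from libraries made, per the labels' protocols, with the TruSeq Small RNA kit from 10 to 20 ng of small RNA and 13 or 16 PCR cycles. The authors deposited whole-number counts per mature miRNA, not normalized, for 800 names per file. In all 33 libraries 6 names stood at 0. The submitters' processing notes name bcl2fastq 2.17.1.14, DESeq2 and the build UMD3.1. The aligner, counting tool and miRNA annotation were not given in the sources used here.

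Members and lists were chosen with earlier results of these data known. Tests were the two-sided quasi-likelihood F test of edgeR 4.0.16 (R 4.3.3) with TMM scaling, filterByExpr and Benjamini-Hochberg adjustment over all miRNAs tested, at 0.05. The code was also run on simulated counts with large changes and a spread common to all miRNAs. That run does not say how well changes of the size and spread seen here would be found. SE is the absolute log2 fold change over the square root of F. Correlations used log2 CPM with a prior count of 2 and 100000 permutations. DESeq2 1.42.0, limma-voom (limma 3.58.1), other scalings and filters, single cows left out and a replicate block served as alternatives. The animal IDs in the labels pair the days: over 16 cows with both, deviations from group means correlated within a cow at a median r of 0.25 (-0.25 to 0.81). Named miRNAs were the 5 members, the 4 most abundant of the other muscle miRNAs, the 3 closest to each member, and red blood cell markers. miR-208b, miR-133c, miR-122, miR-143 and miR-145 were related or marker miRNAs named besides, and miR-30b-5p was named after its values were seen. No sequences are printed, since none of the files used here holds them.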

Additional observations from a re-analysis of the deposited data

Results flagged for a closer look

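Within the healthy groups, 4 of 8 sets of values for 1 miRNA had a cow far from the others by Dixon's criterion. Chance meets it in about 1 of 20 sets of normally distributed values. The criterion was applied to CPM without logs, which need not follow that shape and are not all continuous, so this rate need not hold. The 4 sets are also not independent. miR-133a reached 134 CPM in healthy cow 2 at day 45, and miR-133b reached 2.21 CPM in the same library. miR-1 stood at 0.21 CPM in healthy cow 4 at day 45 and at 0.682 CPM in healthy cow 1 at day 25, where the other cows of each group had 0. Any single count among zeros meets the criterion, so these say only that 3 and 5 counts were found. The criterion was not applied to the SCE groups, with 11 cows each.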

How the results depend on the processing

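Over 12 comparisons of miR-133a and miR-499 and 266 alternatives, 257 kept the direction, 9 reversed it and 2 became calls. Scaled by library totals alone, 1 muscle miRNA (miR-499) was called at day 25 and 1 over both days, against 0 with TMM, and 2 correlations passed against 1, with r of miR-133a and miR-133b at day 25 at 0.61 (permutation adjusted p = 0.03). The same scaling turned miR-133a at day 25 to 0.59, and the r of miR-133a with miR-499 to 0.0642 at day 25 and 0.0627 at day 45 and of miR-133b with miR-499 at day 45 to 0.22. limma-voom turned miR-133a at day 25 to 0.10, and DESeq2 turned it at day 45 to -0.69. Leaving out each cow in turn gave, for miR-133a by status, -0.63 to 0.0378 at day 25, -0.54 to 2.51 at day 45 and -0.41 to 1.43 over both days. For miR-133a the difference of the day effect ran from -0.30 to 2.13. For miR-499 between days in healthy cows the range was -0.0781 to 0.79, below 0 without healthy cow 6. The reversals of miR-133a came without healthy cow 2 at day 25 and without SCE cow 10 elsewhere, and the highest values at day 45, over both days and for the difference came without healthy cow 2. Chosen after seeing the data, leaving out healthy cow 2 or SCE cow 10 gave 1 passing correlation each. For day 45 these gave -0.40 to 0.42 for miR-133a with miR-499 and -0.44 to 0.56 for miR-133b with miR-499. With the replicate block the values for miR-133a were 0.55 in SCE cows, 0.79 in healthy cows and -0.10 for the difference, and for miR-499 -0.23, 0.10 and -0.31, and no call changed. Beyond single cows and scaling, the cause was not tested. The filter at 10 CPM left some muscle miRNAs untested and gave no value there. Counts of all miRNAs called ran from 0 to 48 at day 25 and from 0 to 64 over both days, against 1 in each with TMM. At day 45 they were 1 by DESeq2 and by library totals against 0, and for the difference of the day effect 1 without a filter against 0. Depth limits miR-1, miR-206 and miR-133b most, whose counts were mostly 0 to 5.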
